A study of Mus musculus with 4 samples.

Results

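The RNA of 9 cytokine genes made by T cells, NK cells and related lymphocytes was followed through 4 single-cell libraries of mouse liver: Ifng, Il2, Il4, Il13, Il17a, Il21, Il10, Areg and Xcl1. The genes were chosen by name, 9 of the 31053 genes listed in the files, and every one was detected in every library. Each library was the only one of its group. The eHCC libraries were labelled Mef2d KO and WT, and so were the premalignant liver libraries (eHCC, early hepatocellular carcinoma tissue). All tissue was cut up, digested with an enzyme kit and read with a 10x kit labelled 5′ gene expression, from polyadenylated RNA. The labels do not state strain, sex, age, how the tumours arose, the promoter or Cre behind the deletion, which cells carry it, or how many animals went into a library. The study set KO against WT within a stage.

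Cytokines are short secreted proteins by which lymphocytes instruct other cells. Type 1 lymphocytes (NK cells, CD8 T cells and T helper 1 cells) are known for interferon gamma (Ifng) and the chemokine Xcl1, type 2 cells for Il4 and Il13, and type 17 cells for Il17a, while Il2 and Il21 feed and help other lymphocytes. Il10 damps inflammation, and amphiregulin (Areg) is an epidermal growth factor receptor ligand tied to tissue repair. The liver is rich in NK cells, resident type 1 innate lymphoid cells, natural killer T cells and γδ T cells, all of which store cytokine messages and answer within hours.

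The main pattern was where each message sat. Ifng and Xcl1 RNA was spread over most T-like and NK-like clusters, whereas Il17a RNA lay mostly in 1 small γδ-type cluster, Il13 RNA in mast cell- and basophil-like cells, and Il4 RNA in those cells and in T cells with natural killer T cell RNA. In eHCC the library labelled KO held less Il17a and Il2 RNA per T-like UMI than the library labelled WT, and more Areg, Il10 and Ifng. With 1 library per group none of these differences has a replicate check, no p-value can be given, and library and genotype label cannot be told apart.

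Some facts about the libraries touch every value. A total of 40142 of 45547 barcodes were kept as cells, 8382 and 10095 in the KO-labelled and WT-labelled eHCC libraries and 8821 and 12844 in the premalignant pair, with medians of 7268, 8629, 4312 and 4760 UMIs per cell in that order. Pairs of libraries shared 27 to 46 barcode sequences. Mef2d RNA did not fall with the KO label: T-like cells held 105 CPM (UMIs of the gene scaled by all UMIs of the class) in the library labelled KO and 68.4 CPM in the library labelled WT in eHCC, and 107 and 70.6 in premalignant liver. The labels name neither the deleted part of Mef2d nor the cells that lack it, so these UMIs check nothing, and KO and WT below mean the libraries so labelled. Cells with hepatocyte markers numbered 30 and 79 in the KO and WT eHCC libraries and 54 and 88 in the premalignant pair, a small share of the cells. Most lymphocyte clusters came from 1 stage or from 1 eHCC library. Clusters t1, t2, t8, t9, t13 and t23 were almost only KO eHCC cells, t0, t5, t12, t21 and t22 almost only WT eHCC cells, and t3, t4, t6, t10, t14, t16 and t20 mostly premalignant cells, so a class compared between libraries was held by different clusters.

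T-like cells numbered 4422 in the KO and 4077 in the WT eHCC library, and 1652 and 1546 in the KO and WT premalignant libraries. NK-like cells numbered 433 and 356 in eHCC and 391 and 222 in premalignant liver, and phagocyte-like cells (monocytes and macrophages without Kupffer markers) 1006 and 3754 in eHCC and 190 and 230 in premalignant liver, for KO and WT in that order. In the T-like cells all 8 T cell markers were each found in at least 10% of cells of every library, and in the NK-like cells all 12 NK markers were. The classes also held each other's marker RNA. Of the 8 T cell markers, 6 or 7 were found in at least 10% of NK-like cells. Their median was 21.8% and 14.0% of KO and WT NK-like cells in eHCC and 22.1% and 17.8% in premalignant liver. Of the 12 NK markers, 6 or 7 were found in at least 10% of T-like cells. Clusters t4 and t8 had leading genes of both T and NK cells and were kept out of both classes. They held 7.78% and 0.109% of the KO and WT eHCC cells and 5.57% and 2.87% of the KO and WT premalignant cells. The T subset gates used below (Cd4, Cd8, Foxp3, Trdc, and Klrb1c or Zbtb16) ran over the T-like cells together with t4 and t8. Gated values thus cover more cells than the T-like class, mainly in the KO eHCC library and in premalignant liver. Levels below are such CPM values, with intervals that cover counting error only: UMIs of 1 cell are not independent, and PCR and sampling of animals are not in them. In a summed class, fewer cells with a message and less message per cell cannot be told apart from the CPM alone, so shares of cells are given beside it.

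**Figure D1:**
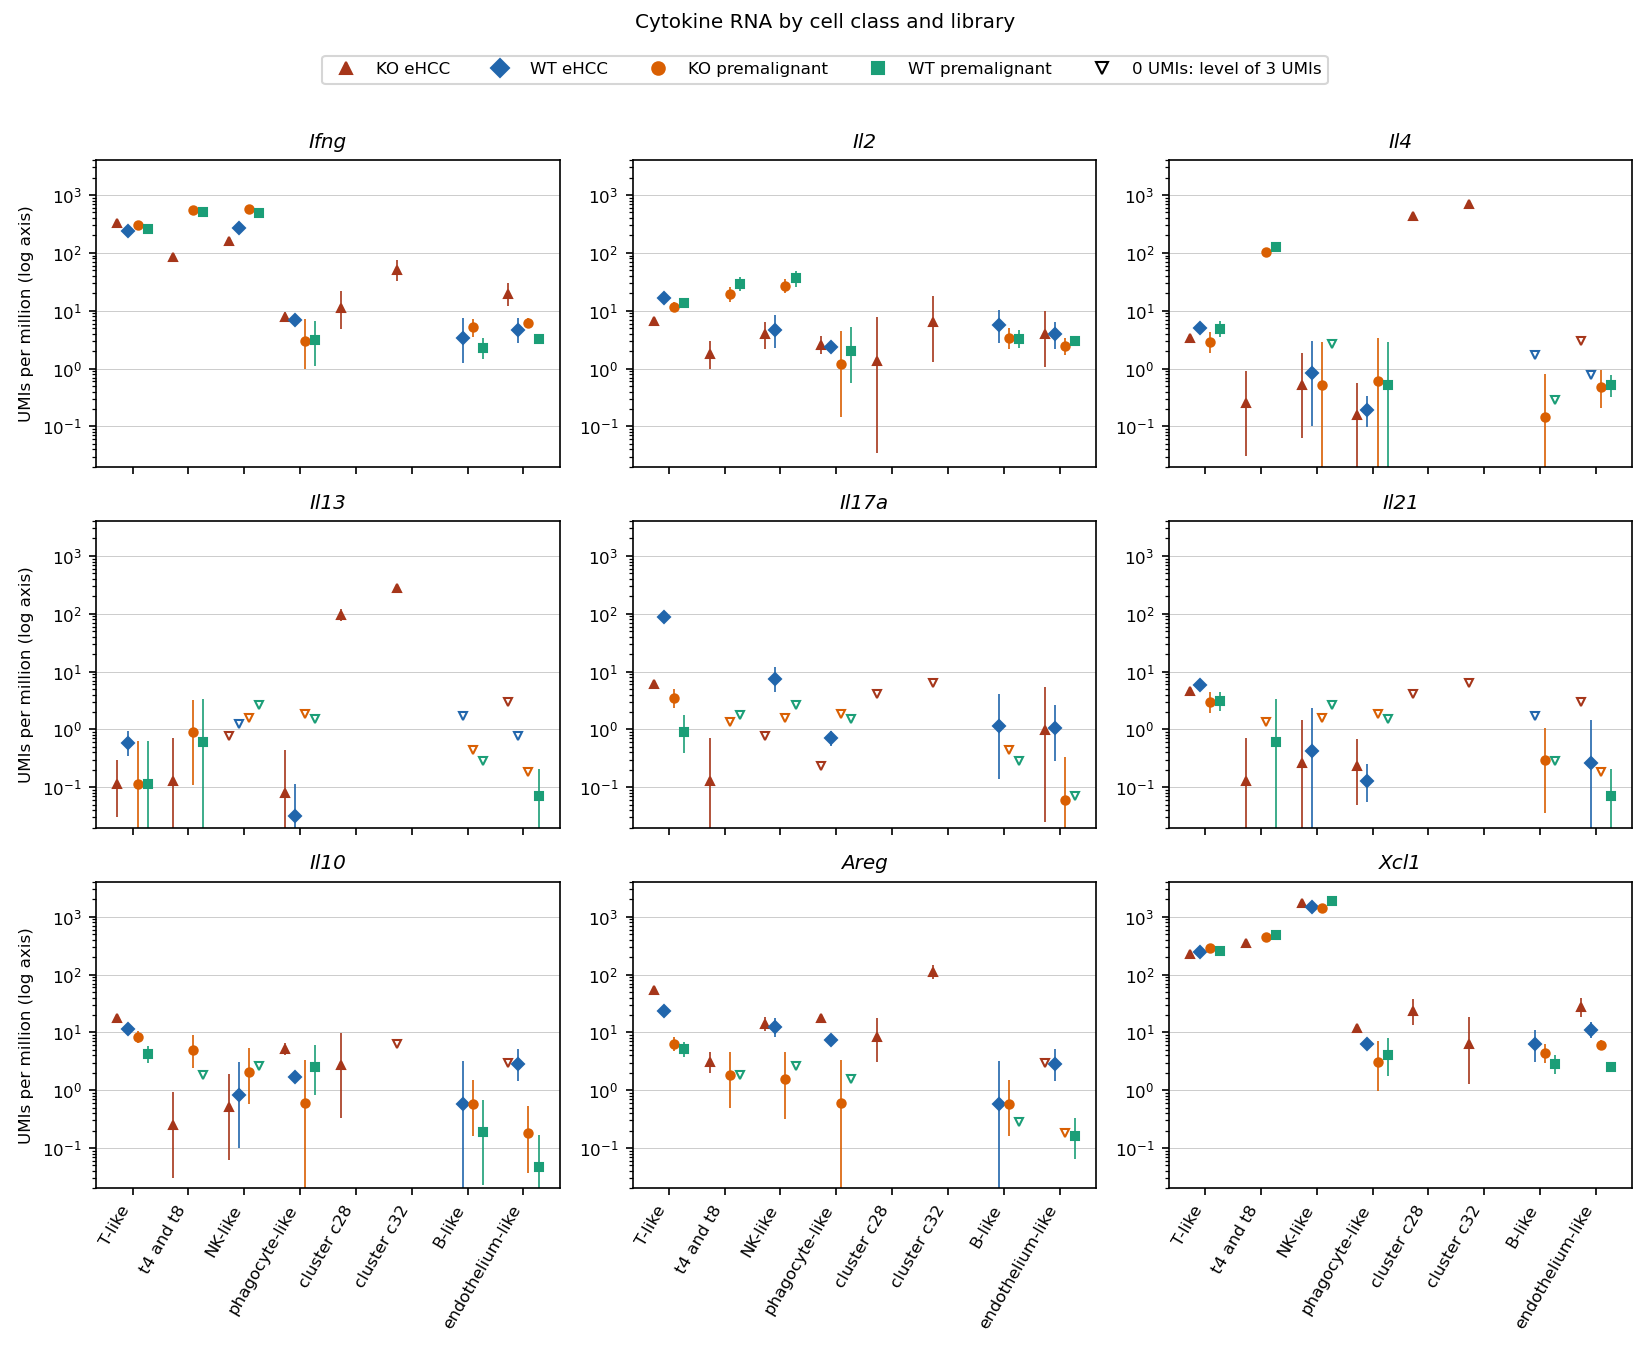
Levels in CPM on a log axis for the 9 cytokines in T-like cells, clusters t4 and t8, NK-like and phagocyte-like cells, clusters c28 and c32 (mast cell- and basophil-like), B-like cells and endothelium-like cells. Each symbol is 1 library with at least 50 cells of the class, bars are 95% Poisson intervals, and open triangles mark classes with 0 UMIs at the level of 3 UMIs. Xcl1 is highest in the NK-like cells of all 4 libraries, Il13 in c28 and c32, and Il17a in the T-like cells of the WT eHCC library.

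Interferon gamma, the main macrophage-activating cytokine of type 1 lymphocytes (ENSMUSG00000055170, chromosome 10, 118441046 to 118445892, plus strand, GRCm38), was found in 37.1% to 49.4% of the T-like cells of a library. All barcodes together held 14802 and 8756 Ifng UMIs in the KO and WT eHCC libraries and 6065 and 4805 in the KO and WT premalignant libraries. T-like cells held 335 CPM (95% interval 329 to 341) in the KO and 235 CPM (229 to 240) in the WT eHCC library, and 302 (290 to 314) and 260 CPM (249 to 271) in the KO and WT premalignant libraries. Both KO libraries were thus above the WT library of their stage. The log2 ratio of KO over WT was 0.51 in eHCC (0.47 to 0.56) and 0.22 in premalignant liver (0.14 to 0.30). Counting clusters t4 and t8 as T-like, an alternative chosen after seeing the data, moved the eHCC ratio to 0.29. At least 1 Ifng UMI was found in 49.4% and 41.9% of KO and WT T-like cells in eHCC and in 44.5% and 37.1% in premalignant liver, at medians of 6596, 6423, 4620 and 4918 UMIs per cell in that order. Thinned to 1000 UMIs per cell the shares were 20.2% and 16.8% in eHCC and 21.4% and 16.6% in premalignant liver, so KO was above WT in both stages at equal depth too. Endothelium-like cells, which should lack the message, had an Ifng UMI in 9.46% and 5.26% of cells in eHCC and in 2.44% and 1.52% in premalignant liver, at medians of 13579, 13637, 5090 and 6672 UMIs.

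Within the T-like cells Ifng differed more between clusters than between labels. Cluster t2, KO eHCC cells led by Pdcd1, Lag3 and Cd8a and so carrying RNA of long-stimulated CD8 T cells, had 527 CPM with a UMI in 55.2% of 1034 cells. Cluster t9, KO eHCC cells led by Tnfrsf4, Cd4, Lag3 and Gzmk, had 396 CPM with a UMI in 57.6% of 602 cells. These were not the highest levels. Over all libraries t27 (54 cells) had 663 CPM, and t3, mostly premalignant cells, 601 CPM with a UMI in 68.2% of cells. Cluster t0, almost only WT eHCC cells, had 401 CPM with a UMI in 53.7%. At the other end, cluster t6 of premalignant liver, led by the naive T cell genes Dapl1 and Lef1, had 16.6 CPM in KO and 23.2 CPM in WT cells, with a UMI in 4.12% and 3.42% of cells. Among T cells gated on Cd8a or Cd8b1 RNA the KO over WT ratio was 0.33 (0.28 to 0.39) in eHCC and 0.29 (0.19 to 0.39) in premalignant liver. Among those gated on Cd4 it was -0.03 (-0.14 to 0.08) in eHCC, from 373 CPM in KO and 381 CPM in WT cells, an interval that includes equal levels. The Ifng excess of the KO eHCC library was thus seen in Cd8-gated and not in Cd4-gated cells, a difference between gates that was not tested.

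NK-like cells ordered the libraries differently. Their Ifng level was 163 CPM (151 to 176) in the KO and 266 CPM (246 to 288) in the WT eHCC library, against 582 (549 to 618) and 492 CPM (452 to 535) in the KO and WT premalignant libraries. Both eHCC libraries were below both premalignant ones. The log2 ratio of eHCC over premalignant was -1.84 (-1.98 to -1.69) for KO and -0.89 (-1.05 to -0.72) for WT, and KO over WT was -0.71 (-0.87 to -0.55) in eHCC and 0.24 (0.09 to 0.39) in premalignant liver. An Ifng UMI was found in 49.4% and 48.3% of KO and WT NK-like cells in eHCC and in 68.5% and 73.0% in premalignant liver, and in 12.5%, 17.7%, 35.1% and 33.3% after thinning. Different clusters stood behind these values, t13 in the KO eHCC library (163 CPM), t21 in the WT eHCC library (232 CPM) and t16 and t20 in premalignant liver (430 to 602 CPM). Cells picked by single-cell NK gates in place of clusters turned the eHCC ratio of Ifng to 0.17. The 16 immediate-early genes on the list used here, which tissue digestion is known to raise, summed to 8520 and 13374 CPM in KO and WT NK-like cells of eHCC and to 13773 and 13509 CPM in premalignant liver. The KO eHCC library was the lowest for these genes as for Ifng, and their part in the result was not tested.

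Xcl1 encodes lymphotactin, the chemokine by which NK and CD8 T cells call cross-presenting dendritic cells with the receptor Xcr1 (ENSMUSG00000026573, chromosome 1, 164931644 to 164935527, minus strand). NK-like cells held 1699 CPM (1658 to 1741) in the KO and 1477 CPM (1429 to 1527) in the WT eHCC library, and 1412 (1360 to 1466) and 1858 CPM (1779 to 1939) in the KO and WT premalignant libraries. A UMI was found in 86.1% and 87.1% of KO and WT cells in eHCC and in 73.7% and 77.5% in premalignant liver. The order of KO and WT was opposite in the stages, with log2 ratios of 0.20 (0.14 to 0.26) in eHCC and -0.40 (-0.48 to -0.31) in premalignant liver. Single-cell NK gates turned the eHCC ratio to -0.090 and gave -0.54 in premalignant liver, so that KO was then below WT in both stages. Within premalignant NK-like cells the clusters differed more than the libraries: t20, led by Ncr1, Cd7 and Klrb1b, had 2555 CPM in KO and 2894 CPM in WT cells with a UMI in 98.2% and 98.4%, while t16, led by Klra8, Klra4 and the mature NK cell genes S1pr5 and Itgam, had 555 and 482 CPM with a UMI in 54.3% and 48.9%.

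In T-like cells Xcl1 stood at 225 CPM (220 to 230) in the KO and 247 CPM (241 to 252) in the WT eHCC library, and at 288 (277 to 300) and 254 CPM (243 to 265) in the KO and WT premalignant libraries. KO over WT was -0.13 (-0.18 to -0.09) in eHCC and 0.18 (0.10 to 0.27) in premalignant liver. These sizes are small and their sign depended on the setting: single-cell T gates gave 0.36 in eHCC, and keeping doublets gave -0.087 in premalignant liver. Cells with a UMI made up 30.9% and 43.2% of KO and WT T-like cells in eHCC, and 11.2% and 15.8% after thinning. They made up 27.5% and 25.3% in premalignant liver, and 13.3% and 12.3% after thinning. Xcl1 and Ifng often came from the same cells: over all lymphocyte clusters and libraries, 50.1% of the 6874 cells with Ifng held Xcl1, against 34.4% of the cells without Ifng, at medians of 5954 and 6072 UMIs.

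**Figure D2:**
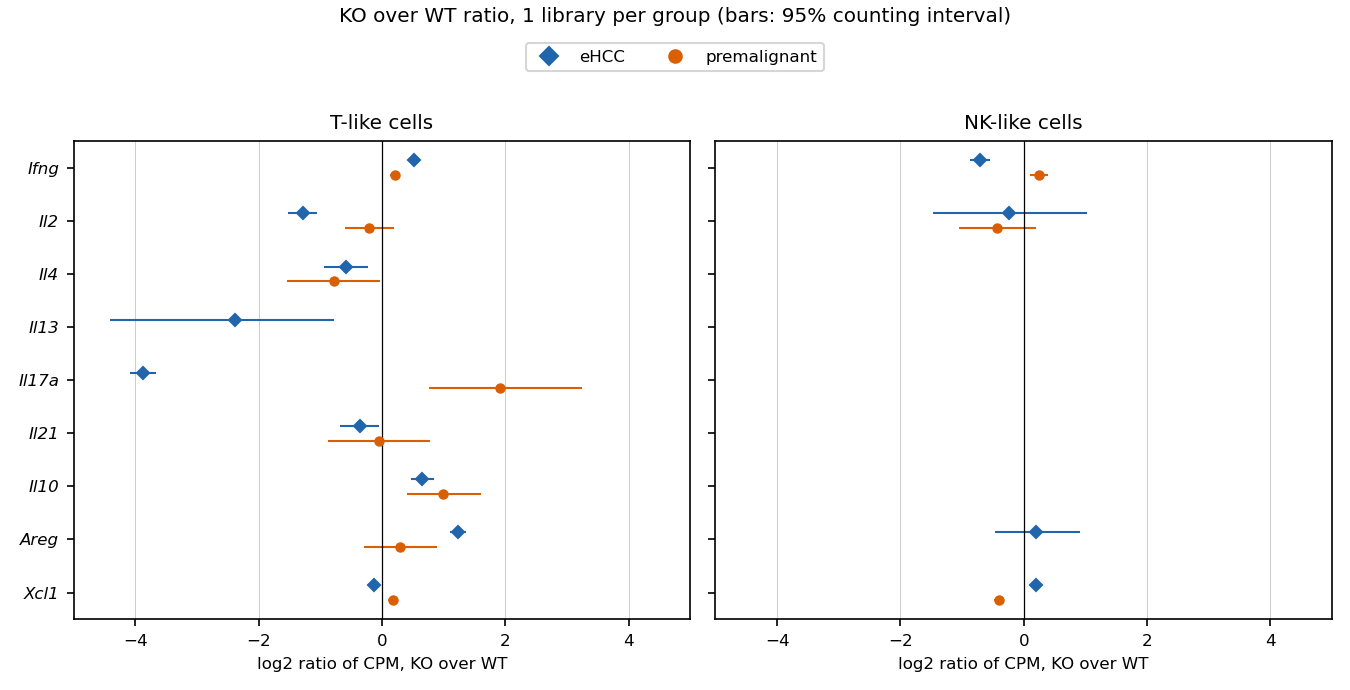
Log2 ratio of CPM, KO over WT, for each cytokine in T-like (left) and NK-like cells (right), in eHCC (diamonds) and premalignant liver (circles), 1 library per group. Bars are 95% counting intervals, and a ratio is drawn where both libraries together held at least 20 UMIs. In T-like cells Il17a lies at -3.87 in eHCC and at 1.92 in premalignant liver, and Areg at 1.24 in eHCC.

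Il17a, the neutrophil-recruiting signature cytokine of type 17 T cells (ENSMUSG00000025929, chromosome 1, 20730905 to 20734496, plus strand), had the largest log2 ratios of the 9 genes in T-like cells, between labels in eHCC and between stages with the WT label (6.60). The 250 bases before its RefSeq start (GRCm38.p6, chr1:20730655-20730904, plus strand) are shown because Il17a was the member whose T-like level differed most between libraries. The capitals mark the only match in it, on either strand, to the letters TGANTCA, 244 bases before the start. These letters were searched for AP-1, the factor of T cell activation, with any base allowed at N. The base there is A in this match, and binding was not tested. Of 32851 promoter windows of this length 6.75% hold that motif, and among the 8 members with a window Il17a was the only one.
Il17a promoter: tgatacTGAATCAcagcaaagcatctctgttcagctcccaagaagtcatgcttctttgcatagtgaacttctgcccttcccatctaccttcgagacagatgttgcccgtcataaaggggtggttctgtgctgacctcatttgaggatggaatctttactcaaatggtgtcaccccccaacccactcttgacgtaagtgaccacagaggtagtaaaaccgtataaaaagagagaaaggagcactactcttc

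All barcodes together held 364 and 2906 Il17a UMIs in the KO and WT eHCC libraries and 32 and 10 in the KO and WT premalignant libraries. In the KO eHCC library the 364 UMIs lay in 35 barcodes, and kept cells held 216 UMIs in 34 cells. In the WT eHCC library kept cells held 2813 UMIs. Over all barcodes and all their UMIs the log2 ratio of KO over WT in eHCC was -2.66 (-2.82 to -2.50). Of the Il17a UMIs in kept cells 89.2% lay in lymphocyte cluster t17, which was led by the γδ T cell genes Cd163l1, Trdc, Trdv4, Blk and Tcrg-C1. Kept T-like cells had 6.06 CPM (5.28 to 6.93) in the KO and 88.7 CPM (85.3 to 92.1) in the WT eHCC library, a log2 ratio of -3.87 (-4.08 to -3.67). Under 12 alternatives this ratio ran from -4.29 to -3.53. In premalignant liver T-like cells held 3.46 CPM (30 UMIs, of which 50% in 1 cell) in KO and 0.916 CPM (8 UMIs, all in 1 cell) in WT, so the ratio of 1.92 there rested on a handful of cells. The direction of the KO and WT difference was opposite in the stages, and the test of that reversal was not possible with 1 library per group.

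Among kept cells, both the number of cells in the γδ-type cluster t17 and their message per cell were lower in the KO eHCC library. Cluster t17 held 80 KO and 233 WT cells in eHCC, and 25 KO and 11 WT cells in premalignant liver. Within it, Il17a reached 316 CPM (273 to 363) in KO and 1489 CPM (1432 to 1549) in WT eHCC cells, with a UMI in 28.8% and 55.8% of cells and in 15% and 35.6% after thinning. Kept cells that had the message held 8.57 UMIs each in KO and 19.3 in WT, values that leave out the removed barcodes. A gate on Trdc RNA in T cells without Cd4 and Cd8 RNA, which does not use cluster t17, took 86 KO and 186 WT eHCC cells and gave Il17a in 19.8% and 56.5% of them, with a log2 ratio of -2.85 (-3.08 to -2.63). Of these gated cells 38.4% of KO and 83.3% of WT lay in t17, against 13.2% of KO and 5.71% of WT in premalignant liver. The Trdc cells outside t17 (53 KO and 31 WT in eHCC) held 4 and 0 Il17a UMIs, and instead 166 and 40 Ifng UMIs and 492 and 160 Xcl1 UMIs. The Trdc cells within t17 (33 of its 80 KO and 155 of its 233 WT eHCC cells) held 2 and 4 Ifng UMIs and 1 and 4 Xcl1 UMIs. Il17a was found in 16 of these 33 KO and 105 of these 155 WT cells, with 175 and 2039 UMIs. In eHCC the Il17a UMIs of Trdc cells thus lay mostly within t17, and their Ifng and Xcl1 UMIs mostly outside it. Cells within t17 made up most of the WT and cells outside it most of the KO Trdc cells. Whether single cells held both Ifng and Xcl1 was not counted. The gate also ran over t4 and t8, which had leading genes of T and NK cells, and their part was not tested.

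Cells with Il17a carried γδ T cell RNA. Of 213 such cells in the lymphocyte clusters 65.7% held Trdc and 64.8% Cd163l1, against 4.41% and 1.72% of the cells without Il17a. Maf was found in 80.8% and the tissue-residence receptor Cxcr6 in 90.1%. Such shares over the lymphocyte clusters, here and below, pooled all libraries and were not matched for depth. In T-like cells of eHCC a pair of other genes of type 17 cells was lower in KO: the sister cytokine Il17f stood at 0.312 CPM in KO and 1.54 CPM in WT (log2 ratio -2.31), and Il23r, the receptor for the interleukin 23 that sustains these cells, at 0.821 and 3.78 CPM (-2.20). Rora and Batf, factors known to take part in type 17 differentiation and also found in many other T cells, were higher in KO (1.36 and 1.13). Few Il17a UMIs lay outside T cells. The neutrophil-like cluster c21 held 31 of them in 5 of its 500 cells (10.3 CPM). In phagocyte-like cells of eHCC there were 0 KO and 44 WT UMIs, in 1.17% of WT cells, beside 1.62% of WT endothelium-like cells, and 18 NK-like UMIs of the WT eHCC library sat to 88.9% in 1 cell.

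Il4, which drives B cell help and alternative macrophage activation, and Il13, its neighbour in the type 2 cytokine locus that acts on epithelium and matrix, were found in the same rare cells. Il4 (ENSMUSG00000000869) lies on chromosome 11 at 53602982 to 53618669 and Il13 (ENSMUSG00000020383) at 53631324 to 53634702, both on the minus strand. Their RefSeq windows are shown because both genes were found together (GRCm38.p6, minus strand, chr11:53618666-53618915 for the second of the Il4 starts listed and chr11:53634703-53634952 for Il13). Capitals mark matches on either strand to the core GGAAAA of NFAT, the calcium-driven factor of activated lymphocytes and mast cells, and in Il4 also the 1 match to the MEF2 motif, the family to which Mef2d belongs. The Il4 window shown holds 4 NFAT core matches, at 185, 161, 78 and 60 bases before the start, and the Il13 window holds 1, at 132. The MEF2 match of Il4 begins 32 bases before the start, and whether Mef2d binds there was not tested. The other Il4 window (chr11:53617339-53617588) holds 0 matches to either motif. Il4 is counted below by the window shown, while the shares are per window. NFAT cores were present for 4 of the 8 members with a window (Il2, Il4, Il13 and Il21) and in 20.4% of all 32851 windows, and the MEF2 motif for 2 members (Il4 and Xcl1) and in 2.92% of all windows. A match describes letters, not binding.
Il4 promoter: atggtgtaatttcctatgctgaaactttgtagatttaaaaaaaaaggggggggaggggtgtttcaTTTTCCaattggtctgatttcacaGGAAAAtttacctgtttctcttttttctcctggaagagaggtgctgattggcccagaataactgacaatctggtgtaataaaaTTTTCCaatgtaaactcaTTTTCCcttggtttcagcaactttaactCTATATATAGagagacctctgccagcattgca
Il13 promoter: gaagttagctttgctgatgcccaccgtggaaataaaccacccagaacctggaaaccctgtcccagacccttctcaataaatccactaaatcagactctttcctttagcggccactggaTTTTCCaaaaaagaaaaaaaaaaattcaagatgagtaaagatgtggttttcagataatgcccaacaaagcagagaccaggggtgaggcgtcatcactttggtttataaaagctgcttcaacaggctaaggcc

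Of all Il13 UMIs in kept cells 58.7% lay in cluster c32 and 26.4% in cluster c28, and of all Il4 UMIs 28% and 19.3%. Cluster c32, led by the basophil proteases Mcpt8 and Prss34, held 65 KO and 14 WT eHCC cells and 45 KO and 21 WT premalignant cells. Its share of cells with Il4 was 64.6% in KO and 78.6% in WT eHCC and 55.6% in KO and 71.4% in WT premalignant liver, and its share with Il13 was 52.3%, 7.14%, 8.89% and 28.6% in that order. The KO eHCC cells of c32 held Il13 most often, at 280 CPM (235 to 332), against 33.8 CPM (6.98 to 98.9) in the 14 WT cells, where 3 UMIs came from 1 cell. Cluster c28, led by the connective-tissue mast cell proteases Mcpt4 and Cma1, held 240 cells of the KO eHCC library, 2 of the WT eHCC library and 1 of the KO premalignant library. In the 240 cells Il4 reached 434 CPM (387 to 485) in 55.0% of cells and Il13 96.1 CPM (75.0 to 121) in 15.8%. Both messages met in the same cells of eHCC: of the KO eHCC cells with Il13, 28 of 38 in c28 (73.7%) and 26 of 34 in c32 (76.5%) also held Il4, against 51.5% and 51.6% of the cells without Il13. The few premalignant c32 cells with Il13 did not show this order: 2 of 4 KO and 4 of 6 WT cells (50% and 66.7%) held Il4, against 56.1% and 73.3% of those without Il13. Depth was not matched between cells with and without Il13, and the 240 KO eHCC cells of c28 had a median of 2270 UMIs.

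Within T cells Il4 was a message of natural killer T-like cells. Clusters t4 (premalignant liver), t23 (KO eHCC) and t22 (WT eHCC) held it in 31.6% of KO and 37.9% of WT cells, in 33.1% and in 28.3%, at 104, 125, 84.1 and 70.4 CPM. Both eHCC clusters had Trav11, the receptor segment of invariant natural killer T cells, among their 10 leading genes, and t4 had Zbtb16, their master regulator. In the lymphocyte clusters 40.3% of the 509 cells with Il4 held Klrb1c and 24.8% Zbtb16, against 14.8% and 3.08% of cells without it, and 66.2% also held Ifng. A gate on Klrb1c or Zbtb16 in T cells without Cd8 RNA, added after seeing the data, gave Il4 in 14.1% of 184 KO and 18.7% of 134 WT eHCC cells and in 26.1% of 360 KO and 33.5% of 263 WT premalignant cells. In this gate KO was below WT in both stages, with log2 ratios of -0.89 (-1.5 to -0.28) in eHCC and -0.48 (-0.82 to -0.13) in premalignant liver. The clusters stood the other way in eHCC, with 84.1 CPM in t23 (KO) and 70.4 CPM in t22 (WT). The gate also ran over t8, almost only KO eHCC cells, which held 2 Il4 UMIs in 659 cells. The part of t8 in the ratio was not tested. In T-like cells proper, without t4, Il4 stood at 3.34 CPM in KO and 4.99 CPM in WT eHCC and at 2.88 and 4.93 CPM in KO and WT premalignant liver. The stage ratios there rested on where t4 was put: eHCC over premalignant was 0.21 for KO and 0.02 for WT without it, and -3.08 and -2.27 with t4 and t8 counted as T-like, an alternative chosen after seeing the data. Il13 was nearly absent there, with 4 and 18 UMIs in KO and WT eHCC and 1 and 1 in premalignant liver, and NK-like cells held 0 Il13 UMIs in every library. Single-cell T gates in place of clusters turned the eHCC ratios in T cells to 0.41 for Il4 and 1.18 for Il13, so the direction of these small T cell counts depended on how T cells were taken.

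Amphiregulin, the repair factor of regulatory T cells and type 2 lymphocytes, was, like Il10, higher in T-like cells of eHCC than of premalignant liver under both labels (ENSMUSG00000029378, chromosome 5, 91139599 to 91148432, plus strand). Its RefSeq window (GRCm38.p6, chr5:91139349-91139598, plus strand) is shown because it is the only member window with the cyclic AMP response element TGACGTCA, in capitals, 61 bases before the start. That element is present in 1.55% of all 32851 windows, searched on either strand.
Areg promoter: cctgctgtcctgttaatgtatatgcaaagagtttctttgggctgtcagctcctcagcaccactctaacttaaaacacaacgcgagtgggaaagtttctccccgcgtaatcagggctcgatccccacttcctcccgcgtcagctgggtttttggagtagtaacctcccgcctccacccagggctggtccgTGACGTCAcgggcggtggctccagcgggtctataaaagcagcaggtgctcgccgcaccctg

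T-like cells held 54.5 CPM of Areg (52.1 to 57.0) in the KO and 23.1 CPM (21.4 to 24.9) in the WT eHCC library, against 6.34 (4.77 to 8.25) and 5.15 CPM (3.76 to 6.90) in the KO and WT premalignant libraries. The log2 ratio of eHCC over premalignant was 3.10 (2.72 to 3.52) for KO and 2.17 (1.73 to 2.63) for WT, and KO over WT was 1.24 (1.11 to 1.36) in eHCC and 0.30 (-0.30 to 0.90) in premalignant liver, where thinning gave -0.21. A UMI was found in 9.07% and 4.37% of KO and WT T-like cells in eHCC and in 1.33% and 1.16% in premalignant liver, and in 3.12%, 1.73%, 0.378% and 0.327% after thinning. Endothelium-like cells had one in 0% of 74 KO and 2.02% of 247 WT cells in eHCC, and in at most 0.0709% in premalignant liver.

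Areg was densest in T cells with Foxp3, the regulatory T cell factor. A Foxp3 gate took 88 KO and 155 WT eHCC cells and 29 KO and 39 WT premalignant cells, and Areg was found in 59.1% and 32.9% of them in eHCC and in 17.2% and 12.8% in premalignant liver. Premalignant counts were small, 11 UMIs in KO and 19 in WT, and their CPM ran the other way (39.7 and 83.4), with 68.4% of the WT UMIs in 1 cell. In eHCC these cells held 518 CPM in KO and 225 CPM in WT, a log2 ratio of 1.20 (0.97 to 1.44). The Foxp3-led cluster t18 gave 507 CPM in 98 KO and 269 CPM in 208 WT eHCC cells, at medians of 6309 and 4039 UMIs per cell. Cd8-gated T cells differed more in proportion, with 27.7 CPM in KO and 5.06 CPM in WT eHCC (log2 ratio 2.45, 2.16 to 2.76) and a UMI in 4.35% and 1.64%. Cd4-gated T cells had 66.2 and 59.6 CPM, a ratio of 0.15 whose interval, -0.12 to 0.42, includes equal levels. In NK-like cells Areg stood at 14.0 CPM in KO and 12.2 CPM in WT eHCC, with 42.6% and 69.0% of the UMIs in 1 cell, against 1.56 CPM (3 UMIs) in KO and 0 UMIs in WT premalignant liver.

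Phagocyte-like cells also held Areg in eHCC, 17.7 CPM (15.5 to 20.2) in KO and 7.47 CPM (6.81 to 8.18) in WT, against 1 and 0 UMIs in premalignant liver. A UMI was found in 4.67% of KO and 2.37% of WT phagocyte-like cells, the second share near the 2.02% of WT endothelium-like cells. The clusters behind the values differed: c11, led by Clec4a3, Lyz2 and Plac8, made up 748 of the 1006 KO cells, and c7 and c9, macrophage clusters led by Fcrls and Trem2 and by Chil3 and Gpnmb, made up 1742 and 1480 of the 3754 WT cells. In c11 alone Areg had 21.7 CPM in KO and 3.27 CPM in WT cells (209 and 8 UMIs, 22.0% of the KO count in 1 cell). In c19, led by Mmp12 and Ccl8, it had 5.78 and 8.90 CPM, and in c9 of the WT library 14.2 CPM.

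Il10, which restrains macrophages and T cells (ENSMUSG00000016529, chromosome 1, 131019845 to 131024974, plus strand), had a higher CPM in KO than in WT T-like cells in both stages. The levels were 17.9 CPM (16.5 to 19.4) in the KO and 11.4 CPM (10.2 to 12.6) in the WT eHCC library, and 8.41 (6.59 to 10.6) and 4.24 CPM (2.98 to 5.84) in the KO and WT premalignant libraries. KO over WT was 0.66 (0.46 to 0.85) in eHCC and 0.99 (0.40 to 1.60) in premalignant liver, and eHCC over premalignant was 1.09 for KO and 1.42 for WT. The eHCC ratio of KO over WT moved to 0.15 when cells were thinned to equal depth, to 0.21 as a mean of the cells' own CPM and to 0.37 with t4 and t8 counted as T-like. A UMI was found in 6.06% and 2.35% of KO and WT T-like cells in eHCC and in 1.94% and 1.03% in premalignant liver, and in 1.62%, 1.01%, 0.567% and 0.458% after thinning. Endothelium-like cells had one in 0%, 1.21%, 0.102% and 0.0354% of cells in the same order. Of all Il10 UMIs in kept cells 25.2% lay in cluster t9, led by Cd4, Lag3 and Gzmk, with 296 UMIs in 18.9% of its 602 KO eHCC cells and 70 UMIs in its 7 WT eHCC cells, 44.3% of the 70 in 1 cell. Among the 430 lymphocytes with Il10, 55.3% held Cd4, 74.0% Gzmk, 58.8% Eomes and 59.1% Pdcd1, against 16.5%, 34.8%, 35.0% and 23.9% of those without, and 6.74% held Foxp3, against 1.97%. Depth was not matched between these groups. Over all classes, 331 KO and 173 WT eHCC cells and 51 KO and 50 WT premalignant cells held Il10. Within the Foxp3 gate Il10 still stood at 80.2 CPM in KO and 28.2 CPM in WT eHCC (log2 ratio 1.51, 0.86 to 2.18, with 34.4% and 29.0% of the UMIs in 1 cell), while in the Cd4 gate it was 52.5 and 64.4 CPM (-0.30, -0.57 to -0.02). Cd4-gated cells made up 17.6% of KO and 10.8% of WT T cells in eHCC, with t4 and t8 counted among the T cells. The share of Cd4-gated cells with Il10 was 14.7% in KO and 7.50% in WT. Thinned, that share was 4.02% and 4.82%, so its order depended on depth.

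In phagocyte-like cells of eHCC Il10 had 5.17 CPM (4.0 to 6.58) in KO and 1.68 CPM (1.38 to 2.04) in WT, a log2 ratio of 1.62. In the cluster c11 that both libraries shared, the levels were 3.32 CPM in KO and 3.27 CPM in WT, and in c19 they were 10.8 and 4.13 CPM.

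Il21, a helper cytokine of Cd4 T cells, best known from follicular helper cells (ENSMUSG00000027718, chromosome 3, 37222759 to 37232636, minus strand), was rare. T-like cells held 4.59 CPM (162 UMIs) in KO and 5.88 CPM (179 UMIs) in WT eHCC and 3.0 CPM (26 UMIs) and 3.09 CPM (27 UMIs) in KO and WT premalignant liver. KO over WT was -0.36 (-0.67 to -0.04) in eHCC and -0.05 (-0.88 to 0.79) in premalignant liver. The premalignant ratio, from few UMIs, ran from -2.64 when thinned to 0.062 at no more than 10% mitochondrial UMIs. Among the 193 lymphocytes with Il21, 63.2% held Cd4, 72.5% Pdcd1 and 23.3% Il10, against 17%, 24.2% and 2.61% of those without. In the Cd4 gate of eHCC Il21 stood at 14.5 CPM in KO and 31.3 CPM in WT, a ratio of -1.11 (-1.56 to -0.67), with a UMI in 6.15% and 6.59% of cells.

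Il2, the T cell growth factor (ENSMUSG00000027720, chromosome 3, 37120523 to 37125959, minus strand), was lower in KO T-like cells in eHCC, at 6.68 CPM (5.86 to 7.59) against 16.3 CPM (14.9 to 17.8) in WT. In premalignant liver KO and WT T-like cells held 11.8 and 13.5 CPM. The log2 ratio was -1.29 (-1.52 to -1.06) in eHCC and -0.20 (-0.60 to 0.19) in premalignant liver. Of the 496 Il2 UMIs of WT eHCC T-like cells 284 lay in cluster t12, 455 WT cells led by Il1rl1, Cd40lg and Spry1, in which 33.0% of cells held Il2 at 97.3 CPM (86.3 to 109) and where 16.0% of all Il2 UMIs lay. The KO eHCC library had 10 cells there. In the Cd4 gate Il2 had 9.90 CPM in KO and 55.5 CPM in WT eHCC (ratio -2.49, -2.94 to -2.05). Low Il2 counts elsewhere are close to background: a UMI was found in 4.39% and 7.90% of KO and WT T-like cells in eHCC, beside 5.41% and 6.07% of endothelium-like cells, which were about 2 times as deep. NK-like cells of premalignant liver stood above it, at 27.0 CPM in KO and 36.4 CPM in WT, and 22.9% and 24.2% of the cells in t20 held a UMI, against 3.90 and 4.62 CPM in KO and WT NK-like cells of eHCC.

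**Figure D3:**
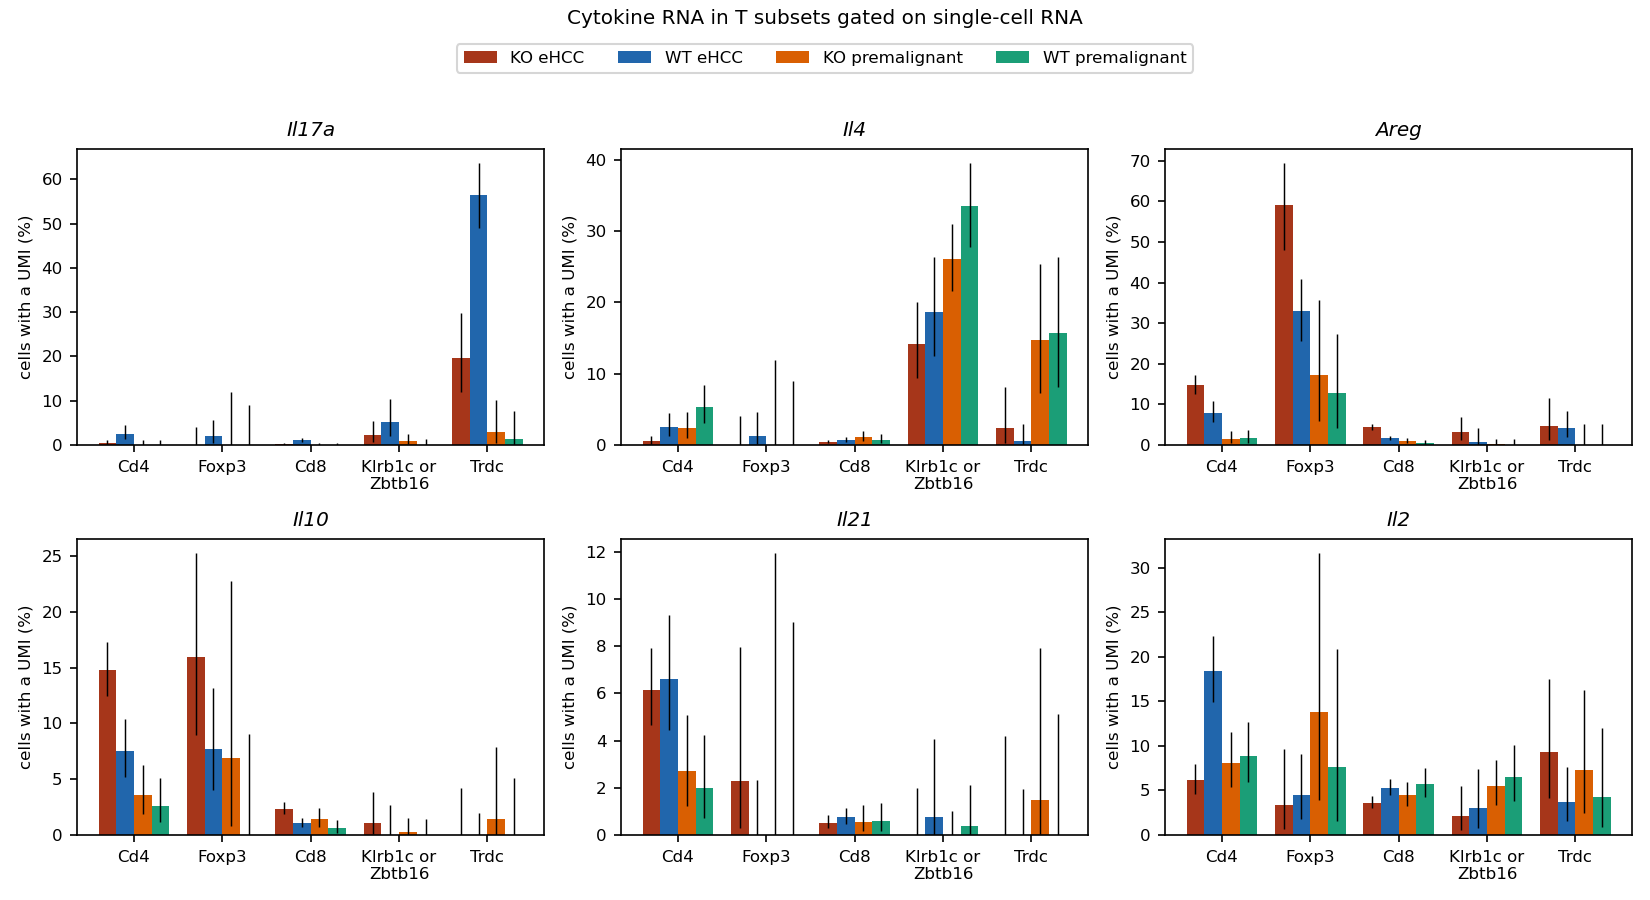
Share of cells with a UMI of 6 cytokines in T cells gated on single-cell RNA (Cd4, Foxp3, Cd8a or Cd8b1, Klrb1c or Zbtb16, Trdc), not thinned, for the KO and WT eHCC and the KO and WT premalignant libraries. Gates ran over the T-like cells and clusters t4 and t8. Bars are shares and lines are exact 95% binomial intervals. Il17a reaches 19.8% of Trdc cells in KO eHCC and 56.5% in WT eHCC, and Areg 59.1% of Foxp3 cells in KO eHCC and 32.9% in WT eHCC.

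**Figure D4:**
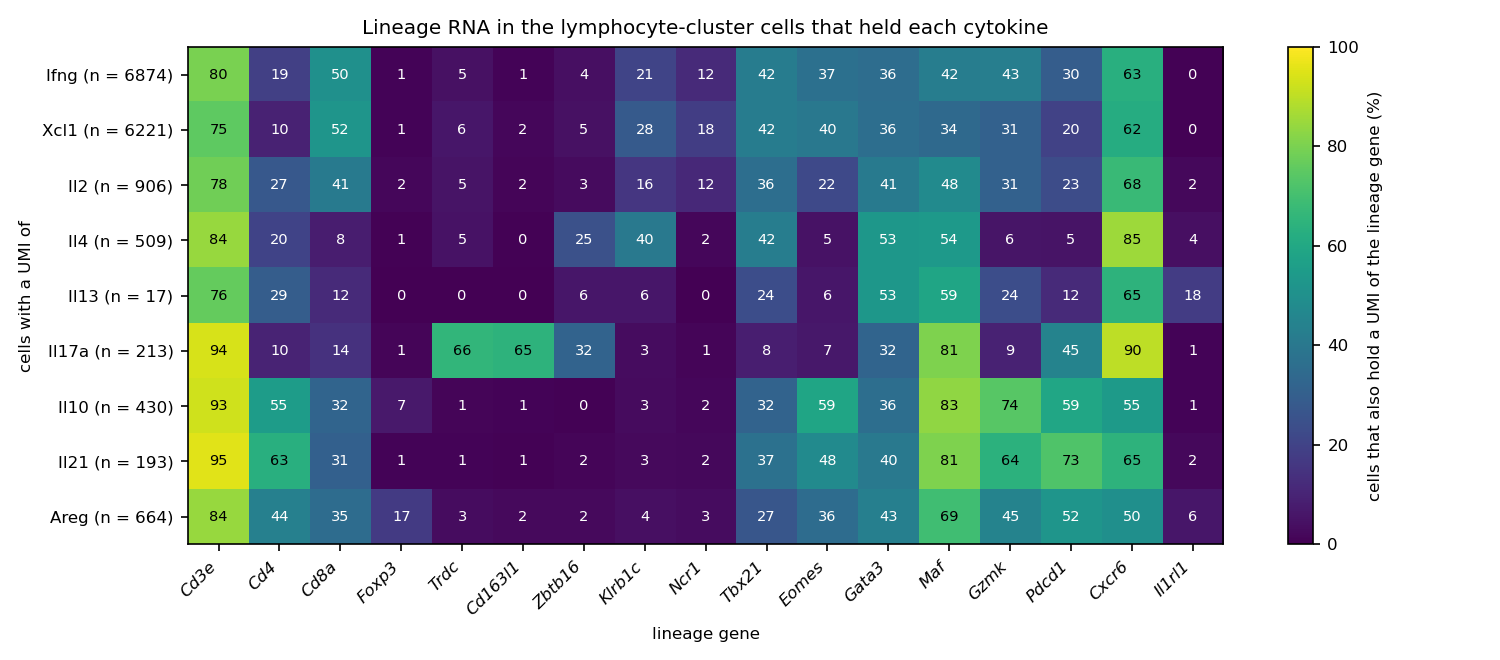
Percent of the lymphocyte-cluster cells with a UMI of each cytokine (rows, number of cells in brackets) that also held a UMI of each lineage gene (columns), all 4 libraries together, not thinned or matched for depth. Trdc and Cd163l1 are high in the Il17a row, Cd4, Gzmk and Pdcd1 in the Il10 and Il21 rows, and Klrb1c and Zbtb16 in the Il4 row.

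Over the 9 genes, the counts past 2-fold were read against all genes with at least 20 UMIs in the pair. In T-like cells, KO against WT, 1 of 9 members was at least 2-fold higher in eHCC (Areg; 4.52% of all genes) and 3 were at least 2-fold lower (Il2, Il17a and, from 4 against 18 UMIs, Il13; 11.4%). In premalignant liver 1 of 8 was higher (Il17a; 2.44%) and 0 were lower (1.84%). For eHCC over premalignant, 2 of 8 were higher with the KO label (Il10 and Areg; 5.03%) and 0 lower (18.1%), and 3 of 8 were higher with the WT label (Il17a, Il10 and Areg; 5.8%) and 0 lower (7.47%). In NK-like cells KO against WT, 0 of 4 members in eHCC and 0 of 3 in premalignant liver passed in either direction, beside 3.69% of all genes higher and 8.47% lower in eHCC and 4.15% higher and 1.8% lower in premalignant liver. For eHCC over premalignant, 1 of 4 in NK-like cells was higher with the KO label (Areg; 2.71%) and 2 were lower (Ifng and Il2; 21.7%), and with the WT label 1 was higher (Areg, 29 UMIs in eHCC and 0 in premalignant liver; 3.28%) and 1 lower (Il2; 7.79%). In phagocyte-like cells of eHCC, KO against WT, 2 of 6 were higher (Il10 and Areg; 6.87%) and 1 lower (Il17a, 0 against 44 UMIs; 13.3%). The median log2 ratio of all genes lay between -0.13 and 0.10 for KO over WT in these classes, but for eHCC over premalignant it was -0.32 (KO) and -0.14 (WT) in T-like and -0.45 (KO) and -0.22 (WT) in NK-like cells, so stage ratios stand that much higher relative to all genes. The stage comparisons share their libraries with the KO and WT comparisons and are not independent of them.

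Genes whose levels most resembled each cytokine across 51 combinations of 18 classes and 4 libraries were found by Pearson's r of log2(CPM + 5), as a description over points that share libraries. Ifng was most like Trbc1 (0.96), Cd226 and Skap1, and Xcl1 most like Il2rb (0.962), Tbx21 and Ctsw. Il13 and Il4 were both most like Ms4a2, a chain of the mast cell immunoglobulin E receptor (0.979 and 0.808), and Il17a most like Cd163l1 (0.790). Il10 was most like Foxp3 (0.737) and Ctla4, Il21 like Crmp1 (0.770) and Gzmk, Areg like the histone genes Hist2h2bb and Hist1h2ab (0.638 and 0.637), and Il2 like Podnl1 (0.859).

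Receptors and partners of the 9 cytokines were read from lists chosen with earlier results of these data known. In T-like cells of eHCC, KO against WT, 1 of 13 measured receptor genes was at least 2-fold higher and 4 were lower, beside 4.52% and 11.4% of all genes, shares that hold for each list in these cells. The list median was -0.10 and the median over all genes -0.07. Il21r had 183 CPM in KO and 79.7 CPM in WT (log2 ratio 1.20), and Il2ra, the high-affinity chain for Il2, had 11.4 and 29.1 CPM (-1.35). Of 16 other T and NK cytokines 3 were higher and 1 lower (median -0.08), led by the chemokine Ccl5 with 15771 CPM in KO and 6662 CPM in WT (1.24). Of 18 lineage factors 2 were higher, Rora with 227 and 88.0 CPM (1.36) and Batf with 127 and 58.2 CPM (1.13), and 2 were lower, and the median was 0.35. Of 11 inducing cytokines and their receptors 1 was higher and 4 lower (median -0.21), among them Il17rb, the receptor for interleukin 25, with 0.651 CPM in KO and 3.45 CPM in WT (-2.40).

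Genes induced by interferon gamma were read in the phagocyte-like cells as the cells that answer it. In eHCC 15 of 18 were at least 2-fold higher in KO than in WT and 0 were lower, beside 6.87% and 13.3% of all genes, with a median log2 ratio of 2.01 against -0.09 over all genes. Gbp2, a guanylate-binding protein of cell-autonomous defence, had 169 CPM in KO and 23 CPM in WT (2.88), while Ciita, the switch of class II antigen presentation, had 31.9 and 44.3 CPM (-0.47). Within the clusters that both libraries shared the difference was smaller. In c11 the median of the same list was 0.15, against -0.09 over all genes, and its summed level was 2150 CPM in KO and 2051 CPM in WT cells. In c19 the median was 0.68, against -0.18 over all genes, and the summed level 2047 CPM in KO and 1380 CPM in WT cells. The part of cluster makeup in the difference over the whole class was not tested. In T-like cells of eHCC 5 of 16 measured response genes were higher in KO and 1 lower (median 0.68), beside the same 4.52% and 11.4% of all genes, led by Cxcl10 with 307 CPM in KO and 60.9 CPM in WT. The lower gene was Ciita, with 8 UMIs in KO and 96 in WT (-3.80). NK-like cells of eHCC held Cxcl10 at 315 CPM in KO and 94.6 CPM in WT. The part of free RNA in these levels was not tested.

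Some handling measures moved with the libraries. The 16 immediate-early genes summed to 7241 CPM in KO and 9790 CPM in WT T-like cells of eHCC, with 0 at least 2-fold higher and 6 lower in KO (4.52% and 11.4% of all genes), and to 9909 and 8234 CPM in KO and WT premalignant liver. RNA of 10 hepatocyte genes, which T cells lack, summed to 11.5 CPM in KO and 169 CPM in WT T-like cells of eHCC, and to 333 and 506 CPM in KO and WT premalignant liver, so free hepatocyte RNA differed between libraries. Of 14 phagocyte markers 3 in KO and 6 in WT eHCC were found in at least 10% of T-like cells, with a median over the markers of 4.36% and 9.85% of cells. The part of these measures in the cytokine differences was not tested.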

How the data were processed

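For each of the 4 libraries the authors deposited a matrix of unnormalized UMI counts, which its header, per the file headers, credits to Cell Ranger 3.0.1. In the submitters' processing notes stand bcl2fastq 2.20.0 as well as Cell Ranger, beside a human build (GRCh38) and a mouse build (mm10). Gene coordinates are GRCm38 (GENCODE), and promoter windows are RefSeq GRCm38.p6 (8 of 9 genes matched).

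Barcodes passed with 500 UMIs or more, 300 genes or more and no more than 25% mitochondrial UMIs. Doublets were called with scrublet in scanpy 1.11.5, which marked 1.82% of the WT eHCC, 7.12% of the KO premalignant and 6.33% of the WT premalignant cells. It marked 0.0112% in the KO eHCC library, where the top 6.48% by score were left out instead. Depth was 93920711 and 118594527 UMIs in the KO and WT eHCC libraries and 56458438 and 96593761 in the premalignant pair. Cells were clustered together without batch integration (2000 variable genes without the 9 cytokines, 40 components, 15 neighbours, Leiden resolution 1), lymphocytes a second time, and clusters were named from marker lists with at least 3 markers detected in at least 10% of cells.

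UMIs were summed per class and library, with no model and no test at 1 library per group. Intervals (95%) are exact Poisson for CPM, exact Clopper-Pearson for shares and exact conditional binomial for ratios. The ratio intervals were run on simulated Poisson counts, the model they assume. That run could not check them for UMIs clumped in single cells. Ratios needed 20 UMIs in both libraries together, 50 UMIs for other named genes. The named genes were the 9 members, up to 2 highest and 2 lowest of each list, and the 3 genes most like each member (500 UMIs or more). For 1 listed gene values are not reported here. The members and the lists were chosen with earlier results of these data known, and the T subset gate on Klrb1c or Zbtb16 was added after seeing the data. Alternatives kept doublets, limited mitochondrial UMIs to 10%, used single-cell gates, resolution 2, the cytokines among the clustering genes, thinning to 1000 UMIs, mean CPM per cell, the top cell left out, median-of-ratios scaling and TMM scaling from edgeR 4.0.16; fits with t4 and t8 as T-like and with more doublets left out were added after seeing the data.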

Additional observations from a re-analysis of the deposited data

Results flagged for a closer look

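For 4 results KO and WT stood in opposite order in the stages. The difference between stages was not tested, since each group is 1 library.

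Il17a in T-like cells had a log2 ratio of KO over WT of -3.87 in eHCC and of 1.92 in premalignant liver, the second from 30 UMIs in KO and 8 in WT cells. Ifng in NK-like cells had -0.71 in eHCC and 0.24 in premalignant liver. Xcl1 in NK-like cells had 0.20 in eHCC and -0.40 in premalignant liver, and Xcl1 in T-like cells had -0.13 in eHCC and 0.18 in premalignant liver. With single-cell gates in place of clusters the order was not opposite for the last 3: Ifng in NK-like cells had 0.17 in eHCC and 0.87 in premalignant liver, Xcl1 in NK-like cells -0.090 and -0.54, and Xcl1 in T-like cells 0.36 and 0.24.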

How the results depend on the processing

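Among ratios recomputed under an alternative 576 stayed within their counting interval, 114 moved beyond it, and 19 turned where that interval left out 0 (the cause was not tested). For Ifng in T-like cells KO over WT moved in eHCC (0.51) to 0.61 with doublets kept, 0.41 with single-cell gates, 0.60 and 0.58 with median-of-ratios and TMM scaling and 0.29 with clusters t4 and t8 counted as T-like, and in premalignant liver (0.22) to 0.091 and 0.12 with the 2 scalings. For Xcl1 in T-like cells it moved in eHCC (-0.13) to -0.23 with doublets kept, -0.35 when thinned, -0.38 as a mean of the cells' own CPM, -0.045 and -0.062 with the scalings and -0.00086 with t4 and t8, and turned to 0.36 with gates. In premalignant liver (0.18) it moved to 0.022 when thinned and 0.056 and 0.083 with the scalings, and turned to -0.0873 with doublets kept and to -0.0868 as a mean of the cells' own CPM.

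In NK-like cells Ifng in eHCC (-0.71) moved to -0.44 when thinned and -0.54 with median-of-ratios scaling and turned to 0.17 with gates, and in premalignant liver (0.24) it moved to 0.87 with gates and 0.026 when thinned. Xcl1 in eHCC (0.20) moved to 0.076 when thinned, 0.37 and 0.35 with the scalings and 0.13 with more doublets left out, and turned to -0.090 with gates, and in premalignant liver (-0.40) it moved to -0.54 with gates.

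Other such ratios that turned were Il4 (0.41) and Il13 (1.18) in T-like cells of eHCC with gates, and eHCC over premalignant in T-like cells for Ifng with the KO label (0.15; -0.045 with doublets kept, -0.11 at resolution 2, -0.079 with cytokines among the clustering genes, -0.29 with gates, -0.30 with t4 and t8), for Ifng with the WT label (-0.15; 0.022 and 0.026 with the scalings) and for Xcl1 with the KO label (-0.36; 0.027 with median-of-ratios scaling). So did Xcl1 with the WT label in NK-like cells (-0.33; 0.0046 with gates) and Ifng in phagocyte-like cells with the KO label (1.35; -0.041 when thinned) and the WT label (1.15; -0.16 with gates, -0.12 with more doublets left out). Ratios whose interval included 0 changed sign in 17 of the moved and 9 of the other values, among them eHCC over premalignant in T-like cells for Il4 with the KO label (0.21; down to -3.08 with t4 and t8) and the WT label (0.02; down to -2.45 with doublets kept) and for Il2 with the WT label (0.27; down to -0.25 with gates), and Areg KO over WT in premalignant liver (0.30; -0.21 when thinned).

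The share of all genes past 2-fold was 1.80% to 21.7% over the 18 directions, 9.95% to 33.5% with no minimum above 1 UMI and 0.290% to 12.5% at 100 UMIs. No paired analysis was possible because each group is 1 library. Il13 and Il21 in T-like cells and Il2 in other cells had few UMIs, with wide counting intervals at this depth.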
